A study of Mus musculus with 12 samples.

Results

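Of the 35852 mouse oligos on a 2-colour spleen array, 1 oligo, M400011276, held a peptide tag of beta-like globin chains, and no oligo held a whole tag of alpha-like ones. Globin oligos were picked by a rule on their sequence, and that rule was set with earlier results of these data known. Each oligo was translated in its 3 forward frames and searched for 12 short peptide tags, 6 typical of alpha-like and 6 typical of beta-like globin chains, and any oligo that held a whole tag was taken. With 1 beta-like and 0 alpha-like oligos, the alpha-like level could not be read by this rule. An oligo that holds only the last 5 residues of an alpha-like tag, M400010807, is therefore described apart, and it was chosen after its values were seen.

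The study measured RNA of whole spleen from female mice on a C57BL/6 background, with 1 sample per array on 12 arrays. The knock-in strain called 564 Igi has the rearranged genes of 1 autoantibody, for its heavy and its light chain, inserted at both antibody loci. It was sampled at 3 ages, with 3 samples at 4 months, 3 at 8 months and 4 at 12 months. C57BL/6 mice without the insertions were sampled at 4 months (n = 2), so genotypes can be compared at equal age at 4 months only. The labels give the genotype of the 564 Igi samples as 564+/-, while the breeding notes say that 564+/+ mice, homozygous at both loci, served for all work on the strain. The same notes say that some of the 564+/+ colony drank water with ampicillin, metronidazole, neomycin and vancomycin, and do not say whether these mice did. Nothing in the labels states that samples of a group came from separate animals, so p-values measure only the spread between these samples.

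Haemoglobin, the oxygen carrier of red cells, is built from paired alpha-like and beta-like globin chains, each bound to a haem group. Erythroblasts, the nucleated precursors of red cells, make globin messenger RNA in very large amounts, and young red cells keep some of it after the nucleus is lost. In mice the spleen's red pulp filters and destroys old red cells and also makes new ones, and this output grows under anaemia or other stress. Globin RNA in whole spleen can therefore come from erythroblasts, from young red cells or from blood held in the organ. In RNA of a whole organ, fewer cells of a type and less RNA per cell cannot be told apart.

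The beta-like oligo is shown because it carries every result below on beta-like globin. It has 60 bases, and the capitals mark the bases that encode the tag KAHGKKV, from base 7 to base 27.
M400011276: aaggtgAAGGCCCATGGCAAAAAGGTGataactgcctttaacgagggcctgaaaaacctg

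The tag lies in frame 1, which reads through all 20 codons without a stop. The oligo's GC content was 48.3%, and it was printed as 1 spot on each array. The longest exact run of bases that it shared with any other oligo on the array was 14. Near copies with scattered mismatches were not searched for. The array files do not pair oligos with genes. The table of mouse genes at hand (RefSeq, GRCm38.p6) lists 7 protein-coding beta-like globin genes and 2 pseudogenes, all on chromosome 7, and 3 protein-coding alpha-like genes on chromosome 11. Which of the beta-like genes the oligo measures was not settled here, and genes of the family that are close in sequence can bind 1 oligo together.

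The first 30 bases of the oligo with the cut alpha-like tag are shown because they hold what is left of the tag. The capitals mark the last 5 of the 7 residues of the tag VLTSKYR, in frame 2, and the stop codon that follows them.
M400010807: gACCTCCAAGTACCGTTAAgctgccttctg

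Adult alpha globin chains end in this tag, and 5 oligos in all held at least 5 residues of some tag cut by the oligo's edge. M400010807 was the only 1 of these 5 in which a stop codon came next. It is no member by the rule, and its identity as an alpha-like globin oligo rests on these bases alone. On the reverse strand, 1 oligo held an alpha-like tag and 0 held a beta-like one, and that oligo was not used.

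On every array Cy3 marked the spleen sample, and Cy5 marked a universal reference RNA that all arrays shared. Values below are log2 of spleen over reference after background correction and normalization within each array, so a value of 0 would mean equal signal in both. Dyes were never swapped, so a dye preference of an oligo is part of its ratio on every array and cancels only in differences between groups. Of all oligos, 69.4% to 91.2% per array were well above background in Cy3, with 17 to 80 spots per array left out as uneven. The arrays lay on 3 slides, each with 4 arrays, and slide 1 held no C57BL/6 array. Depth does not apply to arrays, and the number of arrays limits the precision.

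The beta-like oligo was bright in spleen on every array. Its Cy3 signal ran from 82102 to 146221 intensity units, which is 2346 to 5132 times the local background, while its Cy5 signal ran from 9507 to 23672. It was well above background in both channels and not saturated on 12 of 12 arrays. Its Cy3 signal was marked as scaled up from a low-gain scan on 12 of 12 arrays. Its Cy5 signal was so marked on 1, replicate 3 at 12 months, which had the highest Cy5 value. The effect of this scaling was not tested. Only 5 to 31 spots of an array were brighter in Cy3. The spleen samples thus gave far more signal at this oligo than the reference did, in C57BL/6 as in 564 Igi.

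The 2 C57BL/6 arrays at 4 months had log2 ratios of 3.81 and 3.96, a mean of 3.89 ± 0.10 (SD, n = 2), or 14.8-fold over the reference. The 564 Igi arrays at 4 months had 3.59, 3.65 and 4.04, a mean of 3.76 ± 0.24 (SD, n = 3), or 13.5-fold. The third of these lay above both C57BL/6 arrays and the other two below both, so the genotypes overlapped at equal age.

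At 8 months the log2 ratios were 3.89 and 3.95, a mean of 3.92 ± 0.04 (SD, n = 2), or 15.1-fold over the reference. The third array at 8 months was left out at this oligo for an uneven Cy3 background, and would have read 3.98 if kept. At 12 months the arrays had 3.28, 4.10, 3.73 and 4.63, a mean of 3.94 ± 0.57 (SD, n = 4), or 15.3-fold. Replicate 1 at 12 months was the lowest of all arrays at 9.68-fold over the reference and replicate 4 the highest at 24.8-fold, so the oldest group enclosed every other array. In order of the means, 564 Igi at 4 months came first, then C57BL/6, then 564 Igi at 8 and 12 months, and no neighbours in that order differed by more than the larger of their SDs.

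The first question was whether beta-like globin RNA differed between 564 Igi and C57BL/6 spleens at 4 months. The log2 ratio was lower in 564 Igi by a difference of -0.13 (SE 0.31, 95% confidence interval -0.80 to 0.55), and limma gave an adjusted p of 0.90 and an unadjusted p of 0.688. Across the array 0.407% of 26279 tested oligos were called changed in this comparison at an adjusted p under 0.05, 18 higher and 89 lower in 564 Igi, and the globin oligo was not among them. As a ratio, the interval ran from 0.574-fold to 1.46-fold of the C57BL/6 level, so changes within those bounds were not excluded with 3 against 2 arrays.

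The next question was whether the level changed with age in 564 Igi. From 4 to 8 months the difference was 0.16 (SE 0.31, 95% confidence interval -0.52 to 0.83), with an adjusted p of 1.000 by limma. In that comparison 0% of oligos were called, with 826 at an unadjusted p under 0.05, and the globin oligo, at an unadjusted p of 0.612, was not one of those. From 4 to 12 months the difference was 0.18 (SE 0.26, 95% confidence interval -0.39 to 0.74), with an adjusted p of 0.898 by limma, against 0.00381% of oligos called.

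From 8 to 12 months it was 0.02 (SE 0.29, 95% confidence interval -0.62 to 0.66), with an adjusted p of 1.000 by limma and an unadjusted p of 0.954, against 0% of oligos called and 1110 at an unadjusted p under 0.05. The F test over the 3 ages gave an adjusted p of 0.975 by limma, against 0.00381% of oligos called. Beta-like globin RNA thus passed no test between ages, and each pair of ages overlapped. The intervals leave room for changes of up to 1.78-fold upward from 4 to 8 months and 1.67-fold from 4 to 12 months.

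Against the C57BL/6 arrays, older 564 Igi spleens differ in age as well as genotype, and the 2 cannot be told apart. The difference was 0.03 at 8 months (SE 0.33, 95% confidence interval -0.71 to 0.77), with an adjusted p of 0.982 by limma, where 0.624% of oligos were called. At 12 months it was 0.05 (SE 0.29, 95% confidence interval -0.59 to 0.69), with an adjusted p of 0.971 by limma, where 0.906% were called. All 3 comparisons with C57BL/6 share the same 2 control arrays. The groups of the globin oligo overlapped in all 6 comparisons. Across the array, the share of oligos without overlap was 34.7% between the genotypes at 4 months, 28.8% for 8 months against C57BL/6 and 20.3% for 12 months against C57BL/6. Between ages it was 9.2% from 4 to 8 months, 8.8% from 4 to 12 months and 4.62% from 8 to 12 months.

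The oligo varied more between arrays of a group than most oligos did. Its SD within groups was 0.374, against a median of 0.156 over 26290 oligos, and 5.89% of them had a larger one. Its range over the arrays was 1.35 on the log2 scale, or 2.56-fold, and 93.7% of oligos had a smaller range. The whole of that range lay within the 12-month group, between replicates 1 and 4. Replicate 4 was no outlier among the 4 arrays by Dixon's test, with a gap to its neighbour of 0.387 of the group's range, under the 95% critical value.

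At 12 months the mean signal at the oligo ranged 2.12-fold between arrays in Cy5, the reference, and 1.78-fold in Cy3, the spleen. The highest of these Cy5 values, at replicate 3, was the only 1 scaled up from a low-gain scan. After the scanner's dye normalization the gap was wider: the processed Cy5 intensity at the oligo ran from 14941 to 34331, a 2.30-fold range, while its processed Cy3 intensity ran from 350714 to 487358, a 1.39-fold range. The slides moved with the ratio too. Means were 3.60 ± 0.25 on slide 1 (SD, n = 4), 3.98 ± 0.13 on slide 2 (SD, n = 4) and 4.11 ± 0.47 on slide 3 (SD, n = 3). The correction that loess made at this oligo was 0.06 to 0.27 on slide 1, 0.57 to 0.82 on slide 2 and 0.96 to 1.75 on slide 3. The part of the slide and of loess in the spread was not tested.

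Within slides the differences between ages took both signs, while all 4 differences of 564 Igi from C57BL/6 were above 0. On slide 2, the only slide with both genotypes at 4 months, the 564 Igi array lay 0.23 above the C57BL/6 array, opposite in sign to the difference of the means. The step from 4 to 12 months was -0.34 on slide 1 and 0.07 on slide 2, and that from 8 to 12 months was -0.62 and 0.16. From 4 to 8 months it was 0.27 on slide 1 and -0.09 on slide 2. At 8 months the 564 Igi array on slide 2 lay 0.14 above its C57BL/6 neighbour, and at 12 months the differences from C57BL/6 were 0.29 on slide 2 and 0.22 on slide 3. Each such value rests on 1 or 2 arrays a group and has no test, and those on 1 slide share its C57BL/6 array. With the slide as a block in the limma fit, 564 Igi minus C57BL/6 was 0.29 at 4 months, 0.37 at 8 months and 0.16 at 12 months, with adjusted p of 0.740, 0.556 and 0.840 and unadjusted p of 0.349, 0.199 and 0.533.

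The sign of the genotype difference also turned with the scaling. In the spleen channel alone, quantile normalized, the log2 signal was 16.55 ± 0.07 in C57BL/6 (SD, n = 2), 16.83 ± 0.11 in 564 Igi at 4 months (SD, n = 3), 16.77 ± 0.05 at 8 months (SD, n = 2) and 16.92 ± 0.26 at 12 months (SD, n = 4). All 564 Igi arrays with a value lay above both C57BL/6 arrays on that scale. Of all oligos, 13.1% at 4 months, 11.9% at 8 months and 9.06% at 12 months likewise had every 564 Igi array above both C57BL/6 arrays. The differences were 0.28, 0.22 and 0.37, with adjusted p of 0.690, 0.702 and 0.370 by limma and unadjusted p of 0.103, 0.226 and 0.0328.

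With each array centred on its median and no loess, the log2 ratio was 3.20 ± 0.05 in C57BL/6 (SD, n = 2), 3.41 ± 0.10 in 564 Igi at 4 months (SD, n = 3), 3.47 ± 0.10 at 8 months (SD, n = 2) and 3.00 ± 0.36 at 12 months (SD, n = 4). That scaling moved the median difference of all oligos by 0.22 between the genotypes at 4 months, -0.13 from 4 to 8 months and -0.24 from 4 to 12 months. Relative to those shifts, the globin oligo differed by -0.02, 0.19 and -0.17. From 8 to 12 months the shift of all oligos was -0.09 and the globin oligo differed by -0.37 beyond it. Before such shifts were taken off, the unadjusted p by limma was 0.0407 from 8 to 12 months and 0.0437 from 4 to 12 months. The adjusted p from 4 to 12 months was 0.210 by limma. The F test over the 3 ages gave an unadjusted p of 0.0447 and an adjusted p of 0.474 by limma. On this scale the 4-month and 8-month arrays of 564 Igi all lay above both C57BL/6 arrays, as they did for 36.2% and 16.4% of oligos, and the 12-month arrays all lay below those at 8 months, as they did for 1.7% of oligos. The adjusted p of these 3 comparisons by limma was 0.586, 0.863 and 0.910.

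In the scanner's own processed ratios the means were 3.89 ± 0.13 in C57BL/6 (SD, n = 2), 3.95 ± 0.21 in 564 Igi at 4 months (SD, n = 3), 4.08 ± 0.06 at 8 months (SD, n = 2) and 4.02 ± 0.56 at 12 months (SD, n = 4). There the 8-month arrays lay above both C57BL/6 arrays, as they did for 14.5% of oligos, with an adjusted p of 0.881 by limma. Of the 6 differences, that of 8 months minus C57BL/6 kept its sign under these 4 scalings, at 0.03, 0.22, 0.27 and 0.19 in the order given, and the other 5 turned sign under at least 1 of them. None passed the test under any of the 4.

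The oligo with the cut alpha-like tag was the brightest spot in Cy3 on 12 of 12 arrays, at 439965 to 525871 intensity units. Both of its channels were marked as scaled up from a low-gain scan on 12 of 12 arrays. Its local background was marked uneven on 7 arrays, so the planned processing left it a value on 5 arrays, 2 at 8 months and 3 at 12 months, with none in either 4-month group. The values and tests that follow keep those spots, a choice made after seeing the data. They were 4.08 and 4.54 in C57BL/6, a mean of 4.31 ± 0.33 (SD, n = 2).

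In 564 Igi at 4 months they were 4.30, 4.55 and 4.54, a mean of 4.46 ± 0.14 (SD, n = 3). At 8 months they were 4.65, 4.54 and 4.99, a mean of 4.73 ± 0.24 (SD, n = 3). At 12 months they were 3.51, 4.78, 4.32 and 5.46, a mean of 4.52 ± 0.82 (SD, n = 4). As with the beta-like oligo, replicate 1 at 12 months was lowest and replicate 4 highest, and the 12-month group enclosed all others.

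Between the genotypes at 4 months this oligo differed by 0.15 (SE 0.41, 95% confidence interval -0.74 to 1.05), with an adjusted p of 0.910 by limma. Its differences were 0.26 from 4 to 8 months, 0.05 from 4 to 12 months and -0.21 from 8 to 12 months, with adjusted p of 1.000, 0.982 and 0.990 by limma. Against C57BL/6 they were 0.42 at 8 months and 0.21 at 12 months, with adjusted p of 0.715 and 0.893 by limma. None passed, and the order of the 4 group means was not that of the beta-like oligo, with C57BL/6 lowest and 564 Igi at 8 months highest. The difference between genotypes at 4 months moved to 0.62 with the slide as a block, 0.49 with median centring and 0.41 with the scanner's processed ratios, with adjusted p of 0.574, 0.364 and 0.795 by limma. Within slides all 5 differences of 564 Igi from C57BL/6 were above 0, at 0.46 at 4 months on slide 2, 0.46 and 0.45 at 8 months on slides 2 and 3, and 0.70 and 0.35 at 12 months on the same slides. These rest on 1 or 2 arrays a group, share 1 C57BL/6 array per slide and have no test. The quantile-normalized spleen channel holds no information on it, since the brightest spot of each array gets the same value there.

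The log2 ratios of the pair moved together from array to array. On 11 of 12 arrays both oligos lay on the same side of their own mean, and the exception was replicate 2 of 564 Igi at 4 months. Here and in the comparisons with other oligos that follow, spots with an uneven background were kept, so the third 8-month array counted. Pearson's r between them was 0.897 over the 12 arrays and 0.922 over the 10 arrays of 564 Igi. Of 26212 oligos compared, 12 had a higher r with the beta-like oligo, and the median r was -0.0048. These arrays share slides, reference RNA and normalization, so r is given as a description with no test. Over the 12 arrays the mean signal of M400010807 ranged 1.20-fold in Cy3, the spleen, and 3.22-fold in Cy5, the reference. For the beta-like oligo these ranges were 1.78-fold and 2.49-fold. No r between the pair could be given in the quantile-normalized spleen channel. The part of the reference channel in the shared movement was not tested.

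The oligo most like the beta-like one over the 12 arrays was M400011806, with r of 0.965, and next came M400012857, with r of 0.938. Their own ranges were 0.96 and 0.86 on the log2 scale. In the spleen channel alone, r with the beta-like oligo was 0.57 for M400011806 and 0.68 for M400012857, lower than in the ratios. The next in order were M400000660, M400011027 and M400018747, with r of 0.925, 0.923 and 0.918 in the ratios. In the spleen channel alone their r was -0.044, 0.038 and 0.048. With median centring and no loess, r was -0.076 for M400018747 and 0.82 to 0.94 for the others named. None of these oligos was assigned to a gene here.

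Oligos with a high ratio of spleen to reference shared much of this movement. There were 411 with a mean log2 ratio of at least 3, a group chosen after values were seen. Their median deviation from their own means ran from -0.28 to 0.32 over the arrays, and its r with the beta-like oligo was 0.80. Of these oligos 46.2% had an r over 0.5 with the beta-like oligo, against 7.06% of all. After that median was subtracted, the within-group SD of the beta-like oligo was 0.241 in place of 0.374. The part of this shared movement in the beta-like values was not tested.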

How the data were processed

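RNA of 12 spleen samples was measured on 2-colour arrays. Per the file headers, the scanner software was Agilent Feature Extraction 11.5.1.1, and the deposited intensity columns hold each spot's mean signal and median background on a linear scale. The authors' deposited series table and the scanner's LogRatio column hold log10 ratios of red over green after lowess (smooth factor 0.25, per the file headers), and the other deposited columns used are flags.

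In limma 3.58.1 (R 4.3.3), mean signals were corrected by normexp (offset 50, on all spots) and then normalized within arrays by loess, in which control spots had weight 0. Spots with an uneven background were given the array's median background for normexp and then left out. Spots marked as uneven themselves were left out too. Oligos well above background in Cy3 on all arrays of a group were kept, 26290 of 35852, and the globin oligo passed. All 12 arrays entered 1 limma fit with a coefficient per group and 8 residual degrees of freedom. A Benjamini-Hochberg adjusted p under 0.05 was called. The script was tested on simulated data.

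Oligos were translated with Biopython 1.88. The globin oligo is named by its tag, the edge match by the rule that a stop codon follows, and the oligos most alike by Pearson's r over arrays. The tags, comparisons and processing were chosen with earlier results of these data known. Marker genes of erythroid and other spleen cells were not analysed here, since 0 identifiers matched the gene table. Replicate numbers were not used to pair samples in the main fit. The r of the 15 same-numbered pairs ran from -0.23 to 0.29, with 5 over 0.1. With 2 to 4 arrays a group, these r cannot show whether same-numbered samples were paired.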

Additional observations from a re-analysis of the deposited data

How the results depend on the processing

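Refits of the beta-like oligo gave 167 values, 0 with an adjusted p under 0.05 by limma (range 0.210 to 1.000). Signs turned in 25, but F tests have none and many refits repeat the main difference. For 564 Igi minus C57BL/6 at 4 months, the difference became 0.058 with the scanner's processed ratios, 0.066 with the series table, 0.28 in the Cy3 channel alone, 0.20 with median centring and 0.29 with the slide as a block. From 4 to 8 months it became -0.060 in Cy3 alone. From 4 to 12 months it became -0.40 with median centring, -0.12 with the slide as a block and -0.054 with the replicate block. From 8 to 12 months it became -0.059 with processed ratios, -0.058 with the series table, -0.47 with median centring, -0.21 with the slide as a block, -0.29 with the replicate block and -0.0033 with uneven spots not left out after their background was replaced, an alternative chosen after seeing the data (0.015 with them kept as scanned). For 12 months minus C57BL/6 it became -0.20 with median centring and -0.26 with the replicate block. With no turn of sign, 8 months minus C57BL/6 moved to 0.37 with the slide as a block. The cause of these moves was not tested.

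Leaving out 1 array at a time, the difference ran from -0.27 to -0.041 between genotypes at 4 months, 0.075 to 0.30 from 4 to 8 months, -0.054 to 0.40 from 4 to 12, -0.21 to 0.24 from 8 to 12, -0.040 to 0.11 for 8 months minus C57BL/6 and -0.18 to 0.27 for 12 months minus C57BL/6. The F test's adjusted p ran from 0.909 to 1.000. The sign turned without 12-month replicate 4 in 3 comparisons (-0.054 from 4 to 12, -0.21 from 8 to 12, -0.18 against C57BL/6), without 12-month replicate 2 in 2 (-0.039 from 8 to 12, -0.0055 against C57BL/6), without 8-month replicate 1 in 1 (-0.011 from 8 to 12) and without C57BL/6 replicate 1 in 2 (-0.040 at 8 months, -0.023 at 12 months).

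For M400010807, the difference from 4 to 8 months became -0.0068 with the slide as a block. From 4 to 12 months it became -0.019 with processed ratios, -0.0083 with the series table, -0.62 with median centring, -0.32 with the slide as a block and -0.26 with the replicate block. For 12 months minus C57BL/6 it became -0.13 with median centring and -0.18 with the replicate block. Leaving out 1 array at a time, it ran from -0.080 to 0.39 between genotypes at 4 months, -0.26 to 0.39 from 4 to 12, -0.53 to 0.13 from 8 to 12 and -0.11 to 0.54 for 12 months minus C57BL/6, with sign turns in each, and with none from 0.13 to 0.36 from 4 to 8 months and from 0.18 (without C57BL/6 replicate 1) to 0.65 (without C57BL/6 replicate 2) for 8 months minus C57BL/6. The 2 to 4 arrays a group limit the precision.

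The number of oligos called moved too. Between genotypes at 4 months (18 higher and 89 lower) it ran from 54 to 121 under other settings and from 69 to 206 (without 12-month replicate 4) with 1 array left out. For 8 months minus C57BL/6 (164) it ran from 83 to 202 and from 101 to 577 (without 8-month replicate 2), and for 12 months minus C57BL/6 (238) from 110 to 309 and from 159 to 284. Between ages it stayed at 8 or fewer.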
